A study of Arabidopsis thaliana with 40 samples.

Results

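Whether the response of Arabidopsis thaliana shoots to freezing depended on a pretreatment with ethanol was measured in 32 of the 40 RNA-seq libraries of a freezing experiment, made with Lasy-Seq, a multiplexed protocol, from 200 ng of total RNA. They were chosen by their labels as the 4 groups of 8 that cross pretreatment with freezing. Frozen ethanol plants were 14 days old when their pots were set in 20 mM ethanol for 6 days, and were then frozen at -4 °C. The freezing procedure was a night in the cold followed by a return to the growth room. The labels do not say whether harvest came before or after that return. Ethanol plants had the same pretreatment and no freezing. Frozen water plants stood for 6 days in water before the same freezing, and water plants had the water alone. The other 8 libraries, from 14-day-old plants with no pretreatment, entered the estimate of the spread and are called starting plants. All plants grew in pots of soil at 22 °C with 16 h of light and 8 h of darkness, and the labels name no mutant or transgene. Frozen groups are labelled 2 h, which may be a time in the cold or one after it. No label gives the hour of harvest, so freezing and time of day cannot be told apart within one pretreatment. Nor do the labels tie each replicate to its own plant or pot, and p-values therefore describe the spread among these libraries, which may be technical.

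Plants prepare for frost through CBF transcription factors, which are made within hours of cold and switch on the COR genes, whose proteins protect membranes and chloroplasts. A separate and faster layer of response genes, among them ERF, RAV, MYB and zinc finger transcription factors, reacts to touch, wounding, cold, darkness and changes in sugar supply, with short-lived messages. Ethanol is turned into acetaldehyde by alcohol dehydrogenase and onwards to acetate, which can enter central metabolism, and it has been used as a priming agent against several stresses.

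The quantity described is the freezing effect in ethanol plants minus the freezing effect in water plants, on the log2 scale. A value below 0 says that freezing lowered a gene's level more, or raised it less, after ethanol. Of 16579 genes tested, 22 (0.133%) had a difference past an adjusted p of 0.05 in edgeR's quasi-likelihood test. In 21 of them (0.127%) the difference was below 0, and in 1 gene (0.00603%), BTF3, it was above 0. Over all tested genes the median difference was -0.0025, with quartiles of -0.19 and 0.17, and the median SE of a gene's difference was 0.247. At an unadjusted p under 0.05 there were 1347 genes, 683 with a difference above 0 and 664 below. No tested gene had freezing effects called in opposite directions after the pretreatments.

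Each freezing effect alone covered more genes, 9.78% of those tested after ethanol and 14.0% after water. After ethanol, freezing raised 680 genes (4.1%) and lowered 941 (5.68%). After water it raised 1161 genes (7.0%) and lowered 1154 (6.96%). These effects rest on separate libraries, but all frozen libraries shared a trend with transcript length that is described below. A rise after both pretreatments was seen in 407 genes, 59.9% of those that rose after ethanol and 35.1% of those that rose after water. A fall after both was seen in 481 genes, 51.1% of those that fell after ethanol and 41.7% of those that fell after water. The Spearman correlation of the freezing effects across genes was 0.48, and 0.25 with the length trend removed. The part of that trend in the shared calls was not tested. A call after 1 pretreatment and not after the other is no difference by itself, and the 22 genes are those in which the difference itself passed the test.

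**Figure D1:**
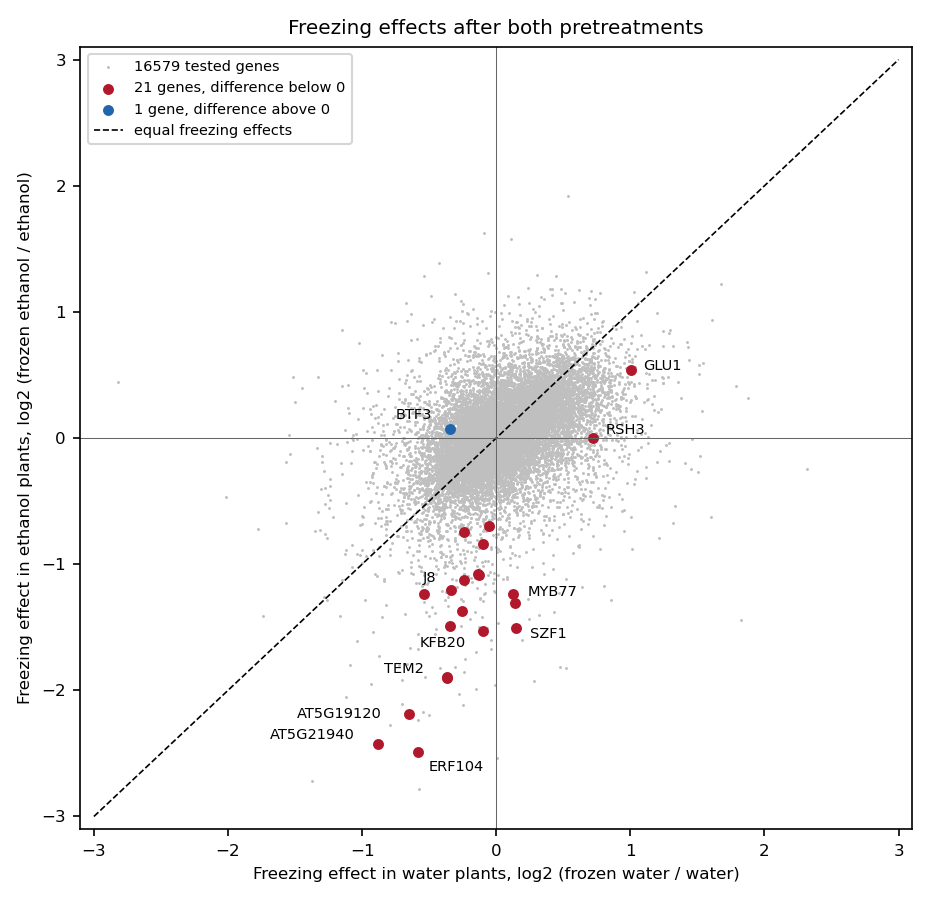
Freezing effect in ethanol plants (vertical axis, log2 frozen ethanol over ethanol) against that in water plants (horizontal axis, log2 frozen water over water) for 16579 tested genes, with 8 libraries in each group. The 21 genes with a difference below 0 lie under the dashed line of equal effects, and BTF3 lies above it.

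Libraries held 2098593 to 9211896 counts, and 3 counts, the limit that a count of 0 allows, corresponded to 0.326 to 1.43 CPM, counts scaled by the library total. This floor covers counting error only. The shoot label was checked on markers: 24 nuclear photosynthesis genes summed to 115100 to 138400 CPM in frozen ethanol libraries, 147100 to 171000 in ethanol, 125400 to 145800 in frozen water and 148700 to 182400 in water libraries. Of 6 root markers only PYK10 was high enough to test, at 10.7 to 64.3 CPM. Water replicate 6 and ethanol replicate 7, the shallowest library, had the lowest mean correlations with their own groups, 0.927 for each. Left out together, 42 genes were called, 8 with a difference above 0 and 34 below, and these included 19 of the 22. Longer transcripts were relatively more abundant in every frozen library than in every unfrozen one: with each gene centred on its mean over 40 libraries, log2 level changed per doubling of transcript length by 0.0805 to 0.236 in frozen ethanol, -0.145 to -0.0209 in ethanol, 0.0834 to 0.219 in frozen water and -0.175 to -0.0629 in water libraries. With that trend removed from each library 18 genes were called, all with a difference below 0, and 16 of them were among the 22; the 6 that lost the call were GLU1, BTF3, RSH3, TZF1, SZF1 and KFB50. In whole shoots, fewer cells of a type and less RNA per cell cannot be told apart.

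The 21 genes with a difference below 0 had in common that, before freezing, their estimated level was higher in ethanol plants than in water plants. The mean of log2(CPM + 1) over the 21 genes ran from 4.70 through a median of 4.96 to 5.27 in frozen ethanol libraries, from 5.75 through 6.29 to 6.52 in ethanol libraries, from 4.86 through 5.24 to 5.52 in frozen water libraries and from 5.06 through 5.30 to 5.82 in water libraries. Frozen ethanol libraries thus overlapped with frozen water libraries, and ethanol libraries lay above both. Of the water libraries, only replicate 8 (5.82) reached the ethanol range. Starting plants had 4.40, 4.65 and 4.85. The ethanol effect before freezing was estimated above 0 in all 21 genes, with a median of 0.81, and passed the test in 18 of them, against 670 of all tested genes (4.04%). It was not called in GLU1, TZF1 and AT2G24550. Freezing after ethanol lowered 19 of the 21 (5.68% of all tested genes), with a median of -1.24, and raised 1, GLU1 (4.1% of all). Freezing after water lowered 5 (6.96% of all) and raised 2, GLU1 and RSH3 (7.0% of all), with a median of -0.24. After freezing, ethanol plants were lower than water plants in AT1G23390, GLU1, TZF1 and AT2G24550, 4 of the 21 genes, and higher in none. The median ethanol effect was then -0.28. Over all tested genes ethanol plants were then higher in 2.41% and lower in 2.83%. These simple effects use the same libraries as the difference and are not further evidence. Choosing genes by a difference below 0 favours high ethanol and low water libraries before freezing. The counts above therefore describe the groups, and the shares of all tested genes beside them are no test.

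**Figure D2:**
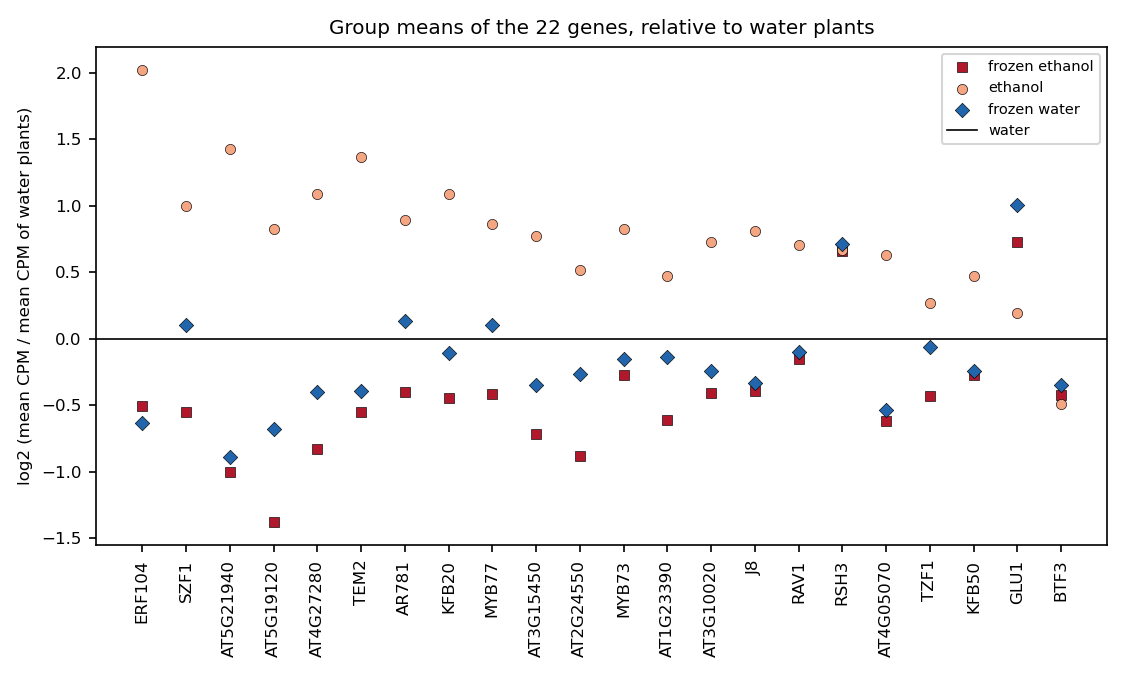
Mean CPM of frozen ethanol, ethanol and frozen water plants for each of the 22 genes, as log2 of the ratio to water plants, which lie at the line at 0 (8 libraries per group). In 21 genes the ethanol mean is above the line and in BTF3 below it, and for RSH3 all 3 groups lie together above it.

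AT5G21940, which RefSeq annotates as a protein like a hybrid signal transduction histidine kinase, had the smallest p. Its level was 16.9, 25.3 and 32.5 CPM (lowest, median and highest of 8) in frozen ethanol plants, against 85.1, 142 and 162 CPM in ethanol plants. In frozen water plants it was 20.8, 27.2 and 33.5 CPM, against 35.6, 47.8 and 66.1 CPM in water plants. Every ethanol library lay above every library of the other 3 groups, while frozen ethanol and frozen water libraries overlapped. Freezing lowered it after both pretreatments, by 2.42 ± 0.14 (log2, SE) after ethanol and by 0.88 ± 0.14 after water. The difference was -1.54 ± 0.20 with an edgeR adjusted p of 6.69e-06. It was the only gene also called against a fold change of 1.5.

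AR781, AT3G10020, AT3G15450, AT1G23390, KFB20, TEM2, MYB77 and J8 were, with AT5G21940, the 9 genes called in each of 32 fits that left out 1 library. The other 13 were called in 6 (KFB50) to 31 (MYB73 and AT5G19120) of those fits. In every such fit the difference of each of the 22 genes kept its sign. With every library thinned to the smallest total, the 9 genes called of the 22 were AT5G21940, KFB20, TEM2, AT3G10020, AT3G15450, AT1G23390, J8, AR781 and GLU1. Without the starting plants in the model, 8 of the 22 lost the call: RAV1, BTF3, AT2G24550, TZF1, SZF1, KFB50, AT4G05070 and ERF104. Their edgeR adjusted p was then 0.0506 to 0.0661.

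Promoter sequences are shown for the genes with the lowest p, so that the region before each start can be read beside its values. They run from 250 bases before to 50 after the gene's start, 5′ to 3′ on the gene's strand, from RefSeq TAIR10.1. AT5G21940 lies on the minus strand at chr5:7250721-7251020, KFB20 on the plus strand at chr1:30241202-30241501, and BTF3, the gene with a difference above 0, on the minus strand at chr1:6153933-6154232.
AT5G21940: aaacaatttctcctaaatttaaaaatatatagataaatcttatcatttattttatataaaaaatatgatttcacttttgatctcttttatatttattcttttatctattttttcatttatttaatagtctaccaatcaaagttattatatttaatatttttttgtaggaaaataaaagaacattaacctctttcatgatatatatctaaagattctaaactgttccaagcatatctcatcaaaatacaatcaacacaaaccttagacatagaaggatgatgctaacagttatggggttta
KFB20: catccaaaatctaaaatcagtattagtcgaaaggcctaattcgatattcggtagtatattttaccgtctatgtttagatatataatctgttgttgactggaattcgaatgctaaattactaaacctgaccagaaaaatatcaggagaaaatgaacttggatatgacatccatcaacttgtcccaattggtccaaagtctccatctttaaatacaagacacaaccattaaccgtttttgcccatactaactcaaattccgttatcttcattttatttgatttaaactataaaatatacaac
BTF3: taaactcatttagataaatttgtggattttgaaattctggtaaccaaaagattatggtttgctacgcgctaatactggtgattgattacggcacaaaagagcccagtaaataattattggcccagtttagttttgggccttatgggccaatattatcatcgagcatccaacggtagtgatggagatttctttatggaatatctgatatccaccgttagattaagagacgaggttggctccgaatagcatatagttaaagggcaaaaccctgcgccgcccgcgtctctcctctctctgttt
None of 6 motifs searched on both strands (CGCGTT, the rapid stress response element, AGCCGCC, the GCC box, CCGAC, the core of the dehydration responsive element, AAAATATCT, the evening element, CACGTG, the G-box, and TTGACC, the W-box) occurs in these 3 windows. Among the 21 genes with a difference below 0, the evening element was found in 3 promoters (14.3%), those of RSH3, KFB50 and MYB73, against 3.19% of 16416 promoters of tested genes. Its surroundings in these 3 genes are given with the motif, or its reverse complement, in capitals. They were chosen after the matches were seen, and all are read on the plus strand, at chr1:20210528-20210556 for RSH3, chr3:22142764-22142792 for KFB50 and chr4:17540318-17540346 for MYB73.
RSH3: aatacattctAGATATTTTtttaaaagaa
KFB50: ttgttttcggAAAATATCTataacaaaat
MYB73: ataatacgttAGATATTTTtatgcagtta
CCGAC was in 3 of the 21 (14.3%, against 16.7% of tested genes), CACGTG in 2 (9.52%, against 8.94%) and TTGACC in 4 (19.0%, against 14.1%). CGCGTT, found in 3.62% of tested genes, and AGCCGCC, found in 0.829%, were in none of the 21 windows. A match is a run of letters and does not show binding.

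Transcription factors were 5 of the 21 genes. TEM2, a RAV family repressor of flowering, had 14.9, 17.0 and 29.4 CPM in frozen ethanol plants, against 42.0, 71.6 and 91.4 CPM in ethanol plants. Frozen water plants had 12.5, 22.1 and 26.4 CPM, against 16.8, 22.6 and 49.4 CPM in water plants. Ethanol libraries lay above all frozen ethanol libraries and overlapped with the highest of the water libraries, which overlapped with frozen water libraries. Its difference was -1.53 ± 0.25 (edgeR adjusted p = 0.000496). RAV1, a related AP2/B3 factor known as a brake on growth, had 33.4, 41.7 and 53.0 CPM in frozen ethanol plants and 52.1, 77.0 and 90.7 CPM in ethanol plants. It had 31.4, 44.0 and 55.8 CPM in frozen water plants and 34.8, 42.7 and 60.7 CPM in water plants. All its groups overlapped with one another, the ethanol group only at its lower end. The difference of RAV1 was -0.75 ± 0.16 (edgeR adjusted p = 0.0358), and without water replicate 1 it was -0.69 with an adjusted p of 0.0823, the highest over the 32 fits. TEM1, the closest relative of TEM2, had a difference of -0.85 ± 0.22 that missed the threshold (edgeR adjusted p = 0.105).

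**Figure D3:**
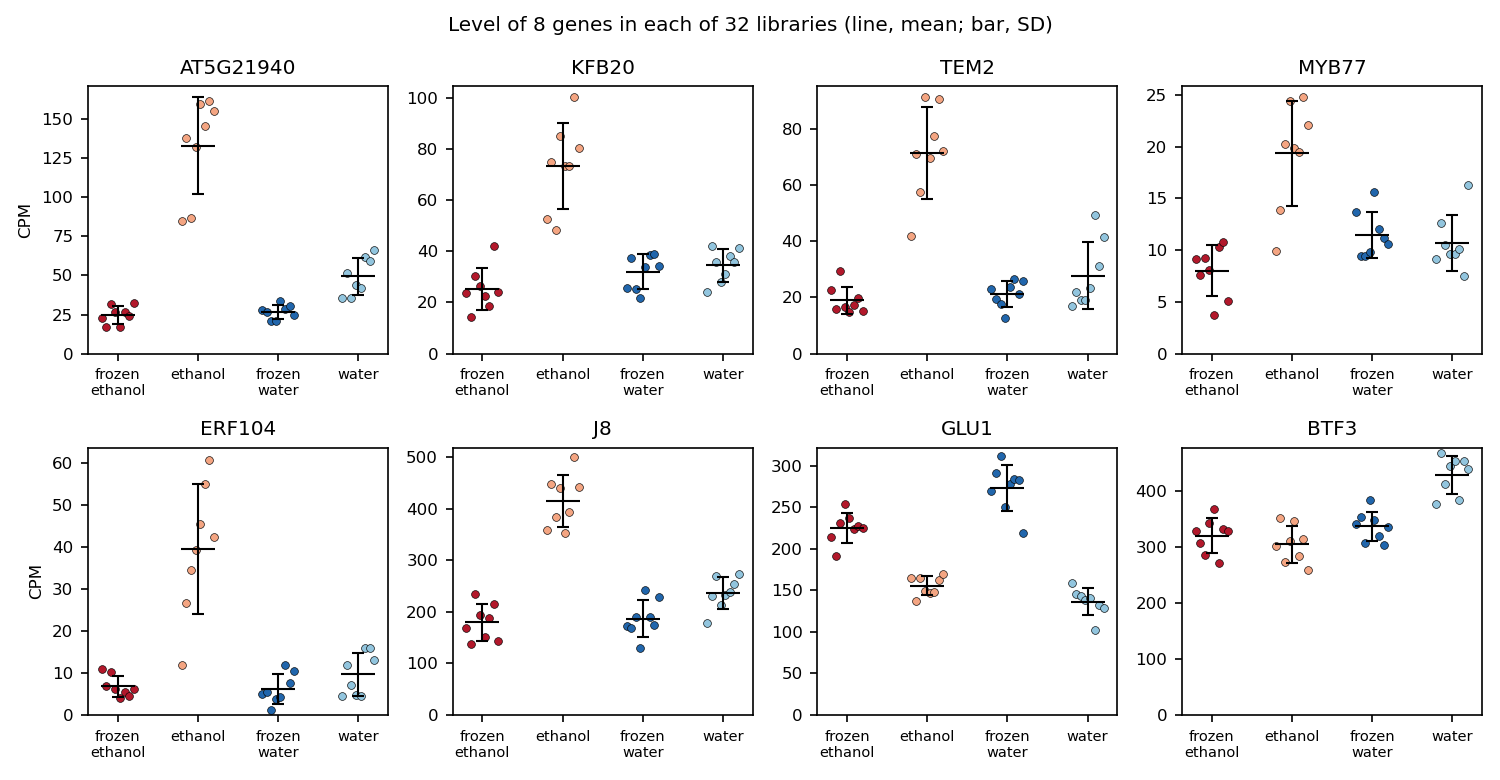
CPM of 8 genes in each of the 32 libraries, in frozen ethanol, ethanol, frozen water and water plants from left to right. Points are libraries, lines are means and bars are SD (n = 8). For AT5G21940, KFB20 and J8 all ethanol libraries lie above those of the other 3 groups, while for GLU1 both frozen groups lie above their unfrozen groups and for BTF3 the water libraries lie above the ethanol libraries.

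ERF104, an ethylene response factor of group IX that acts in early defence signalling with the kinase MPK6, had the largest difference of the 22. Its level was 4.13, 6.30 and 10.9 CPM in frozen ethanol plants, against 12.0, 40.8 and 60.8 CPM in ethanol plants. In frozen water plants it was 1.24, 5.25 and 12.0 CPM, against 4.43, 9.48 and 16.0 CPM in water plants. Ethanol libraries varied widely, with the lowest in replicate 1 and the highest in replicate 7, yet did not overlap with frozen ethanol libraries. The ethanol effect before freezing was 2.02 ± 0.28 (edgeR adjusted p = 7e-07). Its difference of -1.91 ± 0.42 had an adjusted p of 0.0341, and of 0.0925 without frozen water replicate 6, the highest over the 32 fits. The edgeR adjusted p of ERF104 was 0.0506 with only the 4 groups in the model and 0.717 with libraries thinned.

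Of the 9 group IX factors tested (of 12 on the list), ERF104 was the 1 called (0.133% of all tested genes). All 9 estimates were below 0, as were 50.4% of all. The list was assembled with earlier results of these libraries known, so its counts are a description. The median difference of the 9 was -1.48, beside -0.0025 over all tested genes. Freezing after ethanol lowered 8 of the 9 (5.68% of all tested genes), freezing after water lowered 1 (6.96% of all), and ethanol before freezing raised 5 (4.04% of all). DEWAX, a repressor of cuticular wax synthesis, lies beside ERF104 on the chromosome and had 56.4, 85.0 and 111 CPM in frozen ethanol plants, against 149.6, 193 and 209.3 CPM in ethanol plants. Frozen water plants had 72.8, 83.9 and 101 CPM, against 89.1, 118 and 165 CPM in water plants. Freezing lowered DEWAX after both pretreatments, by 1.14 ± 0.11 and 0.51 ± 0.11, and its difference of -0.63 ± 0.16 was not called (edgeR adjusted p = 0.0847).

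MYB73 and MYB77 are R2R3-MYB factors of subgroup 22, a group tied to salt and auxin responses. MYB77 had 3.77, 8.65 and 10.8 CPM in frozen ethanol plants, against 9.94, 20.1 and 24.8 CPM in ethanol plants. Frozen water plants had 9.40, 10.8 and 15.6 CPM, against 7.48, 9.86 and 16.3 CPM in water plants. Freezing lowered MYB77 after ethanol by 1.24 ± 0.18, and after water the estimate was 0.13 ± 0.18 and not called. Its difference was -1.36 ± 0.25 (edgeR adjusted p = 0.00417). With libraries thinned to the smallest total that was -1.19 and not called (edgeR adjusted p = 0.538). MYB73 had 14.6, 27.6 and 37.1 CPM in frozen ethanol plants, against 46.4, 59.8 and 64.4 CPM in ethanol plants. It had 21.1, 29.1 and 41.3 CPM in frozen water plants, against 26.7, 30.7 and 41.5 CPM in water plants. Its ethanol libraries lay above all others of the 4 groups, and the other 3 groups overlapped. The difference of MYB73 was -0.96 ± 0.20 (edgeR adjusted p = 0.0153), and of the 32 fits that left out 1 library it lost the call in the fit without frozen water replicate 6 (-0.87, adjusted p = 0.0525). The other members tested, MYB44 (-0.59 ± 0.15) and MYB70 (-0.42 ± 0.31), were not called.

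Among CCCH zinc finger proteins, which bind RNA, SZF1 and TZF1 were called. SZF1, named for its induction by salt, had 2.33, 4.78 and 6.32 CPM in frozen ethanol plants, against 5.24, 13.9 and 22.8 CPM in ethanol plants. In frozen water plants it had 4.41, 6.21 and 14.2 CPM, against 2.74, 5.49 and 11.6 CPM in water plants, so that all groups overlapped. Its difference of -1.65 ± 0.38 (edgeR adjusted p = 0.0460) had an adjusted p of 0.123 without frozen water replicate 6 and of 0.0562 with the length trend removed. TZF1, found in granules that store or degrade messages, had 43.1, 53.8 and 65.9 CPM in frozen ethanol plants, against 74.3, 90.09 and 119.6 CPM in ethanol plants. Its 8 libraries of frozen water plants had 56.1, 71.8 and 90.4 CPM, against 56.8, 74.9 and 95.2 CPM in water plants. The difference of TZF1 was -0.64 ± 0.14 (edgeR adjusted p = 0.0422), and 0.106 was its highest adjusted p with 1 library, frozen water replicate 5, left out; with the length trend removed it was 0.0591. In the list of 9 tested tandem zinc finger genes the median difference was -0.45.

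Kelch-repeat F-box proteins select targets for degradation, and KFB20 and KFB50 are known to act on cytokinin response regulators and on phenylalanine ammonia-lyase. KFB20 had 14.4, 23.9 and 41.9 CPM in frozen ethanol plants, against 48.1, 74.2 and 100.3 CPM in ethanol plants. Its frozen water libraries had 21.6, 33.9 and 39.0 CPM, against 24.0, 35.7 and 42.0 CPM in water plants. Here too the ethanol libraries alone stood above the rest, and frozen water and water libraries covered almost the same range. Freezing lowered KFB20 after ethanol by 1.53 ± 0.16, its estimate after water was -0.10 ± 0.16, and the difference was -1.43 ± 0.22 (edgeR adjusted p = 0.000447). KFB50 had 78.6, 84.2 and 91.4 CPM in frozen ethanol plants, against 117, 144 and 157 CPM in ethanol plants. It had 72.7, 86.9 and 102 CPM in frozen water plants, against 89.1, 95.3 and 155 CPM in water plants, and of the water libraries replicate 8 alone reached the ethanol range. The difference of KFB50 was -0.51 ± 0.12 (edgeR adjusted p = 0.0443), and its adjusted p was 0.103 without water replicate 1 and 0.0562 with the length trend removed. Freezing after water also lowered KFB50, by 0.24 ± 0.082. AT1G23390, annotated as a kelch-repeat F-box protein and outside the list, had a difference of -0.94 ± 0.16 (edgeR adjusted p = 0.00142).

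The remaining genes that freezing lowered after ethanol encode a chaperone, a protease, a calcium-binding protein and proteins of less clear function. J8, a small DnaJ-type chaperone, had 138, 178 and 235.1 CPM in frozen ethanol plants, against 352, 416 and 499.7 CPM in ethanol plants. Its frozen water libraries had 129.9, 182 and 242 CPM, against 179, 235.2 and 274 CPM in water plants. The lowest ethanol library was above the highest of every other group, and freezing lowered J8 after both pretreatments, by 1.21 ± 0.12 and 0.33 ± 0.12. AT5G19120, annotated as an aspartyl protease family member, had a difference of -1.54 ± 0.32, and its adjusted p was 0.0503 without ethanol replicate 7. AT4G27280, a calcium-binding EF-hand protein, had 5.21, 10.00 and 21.5 CPM in frozen ethanol plants, against 31.2, 39.2 and 62.9 CPM in ethanol plants, and 8.09, 12.8 and 24.3 CPM in frozen water plants, against 12.6, 17.1 and 38.9 CPM in water plants. Its frozen groups overlapped with each other, and its ethanol libraries with those of water plants only through water replicate 6. 

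AT3G15450, annotated as an aluminium-induced protein, had 72.6, 101 and 133 CPM in frozen ethanol plants, against 189, 283 and 394 CPM in ethanol plants. Frozen water plants had 98.5, 125 and 184 CPM, against 128, 174 and 211.5 CPM in water plants. Its difference was -1.15 ± 0.19 (edgeR adjusted p = 0.000673). AT3G10020, a protein of unstated function, differed by -0.89 ± 0.14 (edgeR adjusted p = 0.000496), with 65.7, 90.13 and 101 CPM in frozen ethanol plants, against 152, 193 and 222.4 CPM in ethanol plants. Its levels were 70.5, 91.7 and 127 CPM in frozen water plants, against 91.7, 113 and 148 CPM in water plants. Starting plants had less of both than any later library, at most 39.3 CPM of AT3G15450 and 27.6 CPM of AT3G10020. AR781, annotated only by a domain of unknown function, had 7.21, 10.2 and 14.4 CPM in frozen ethanol plants, against 14.3, 27.9 and 40.05 CPM in ethanol plants. It had 7.92, 16.9 and 22.4 CPM in frozen water plants, against 6.67, 12.4 and 24.6 CPM in water plants, with overlap between all groups. The difference of AR781 was -1.45 ± 0.30 (edgeR adjusted p = 0.0153), and those of the rest were -1.12 ± 0.26 in AT2G24550 and -0.70 ± 0.16 in AT4G05070, annotated as wound-responsive. AT3G10020, AT1G23390, J8, RSH3 and AT4G05070 fell outside the rule for named genes and were named after their values were seen.

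**Figure D4:**
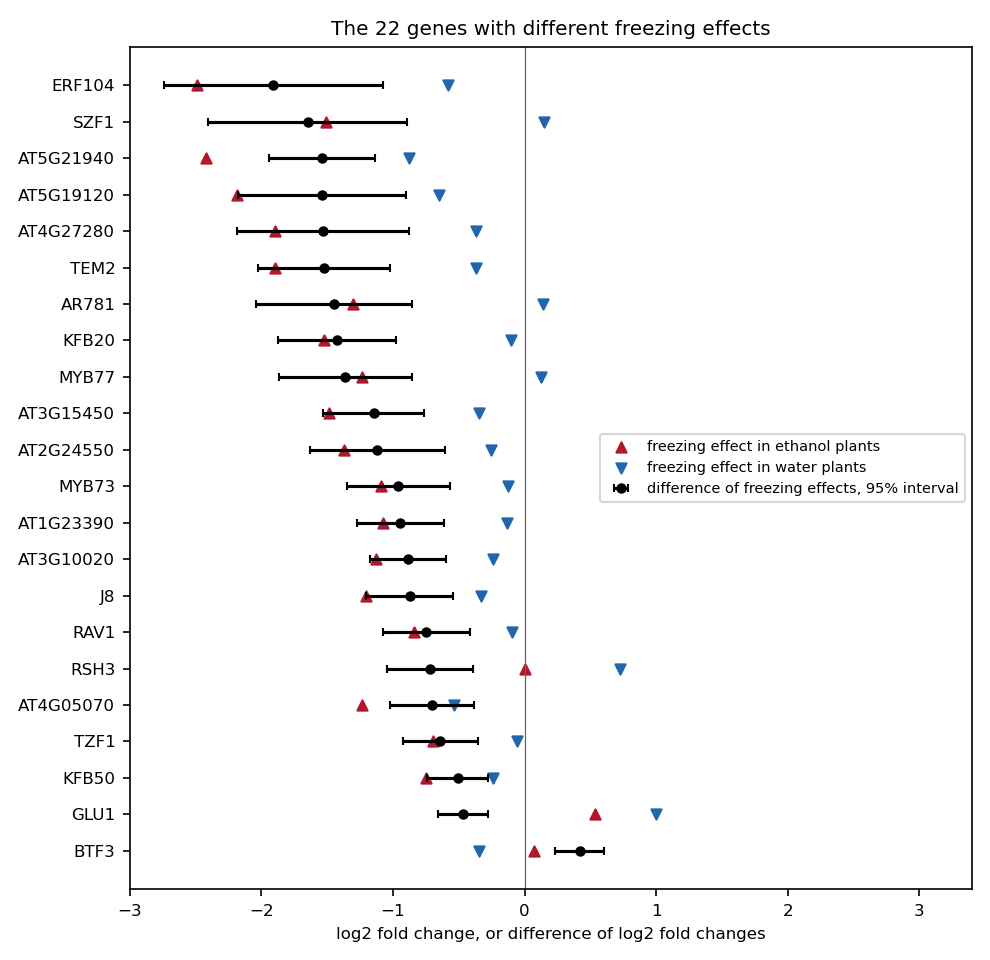
Difference of freezing effects (black points, with 95% intervals) and its components, the freezing effect in ethanol plants (red) and in water plants (blue), for the 22 called genes on the log2 scale. Red points lie left of blue ones in 21 genes, and to the right in BTF3.

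In GLU1, RSH3 and BTF3 freezing after ethanol was not called as a fall. GLU1, the chloroplast ferredoxin-dependent glutamate synthase that recovers ammonium from photorespiration, rose with freezing after both pretreatments and rose less after ethanol. Its level was 192, 225.8 and 254 CPM in frozen ethanol plants, against 138, 156 and 169 CPM in ethanol plants. In frozen water plants it was 219.1, 281 and 311 CPM, against 103, 139.5 and 159 CPM in water plants. Neither frozen group overlapped with its unfrozen group. The freezing effects were 0.54 ± 0.067 after ethanol and 1.00 ± 0.068 after water, and the difference was -0.47 ± 0.095 (edgeR adjusted p = 0.0153). With the length trend removed, the difference of GLU1 was -0.37 with an adjusted p of 0.180. It also missed the threshold without ethanol replicate 8 (-0.44, adjusted p = 0.0528), frozen water replicate 2 (-0.43, adjusted p = 0.0551) or frozen water replicate 3 (-0.41, adjusted p = 0.0550).

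RSH3, a plastid enzyme that makes the alarmone ppGpp, had 31.0, 35.1 and 42.0 CPM in frozen ethanol plants, against 27.5, 38.1 and 40.5 CPM in ethanol plants. Its frozen water libraries had 29.2, 37.3 and 47.7 CPM, against 19.3, 22.0 and 29.0 CPM in water plants. Frozen ethanol, ethanol and frozen water libraries covered similar ranges, and all water libraries lay below all frozen water libraries. Freezing raised RSH3 after water by 0.72 ± 0.12, and its estimate after ethanol was 0.00 ± 0.11, for a difference of -0.72 ± 0.16 (edgeR adjusted p = 0.0422). BTF3, a subunit of the complex that meets new polypeptides at the ribosome, was the reverse. It had 271, 329 and 368 CPM in frozen ethanol plants, against 260.1, 307 and 352 CPM in ethanol plants. Frozen water plants had 304, 339 and 385 CPM, against 377, 443 and 468 CPM in water plants. Its difference was 0.42 ± 0.093 (edgeR adjusted p = 0.0401), with a fall of 0.35 ± 0.066 after water and an estimate of 0.07 ± 0.066 after ethanol. Removing the length trend ended the calls of RSH3 (adjusted p = 0.0668) and BTF3 (adjusted p = 0.0976). Their highest adjusted p with 1 library left out was 0.0999 for RSH3, without water replicate 4, and 0.0895 for BTF3, without frozen ethanol replicate 5.

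The separation of ethanol libraries uses the same values that chose the genes, which favour high ethanol libraries, so the counts below are a description and the shares of all tested genes beside them are no test. In 6 of the 21 genes, AT5G21940, KFB20, AT3G10020, J8, MYB73 and AT4G05070, every ethanol library was above every water library, which held for 97 of all tested genes (0.585%). Every ethanol library was above every frozen ethanol library in 15 of the 21, against 251 of all tested genes (1.51%). In 3 of the 4 groups single libraries held many of the extremes of the 21 genes. Ethanol replicate 7, the shallowest library, was the highest of its group in 14 of the 21 (66.7%, against 19.7% of all tested genes) and ethanol replicate 1 the lowest in 12 (57.1%, against 11.1%). Water replicate 8 was the highest in 12 (57.1%, against 15.1%) and water replicate 1 the lowest in 11 (52.4%, against 11.4%). Frozen water replicate 4 was the lowest in 13 (61.9%, against 15.5%). Frozen ethanol libraries were more evenly spread, with at most 6 highest values in 1 library (replicate 3) and at most 8 lowest (replicate 5, 38.1%, against 15.2%). The part of these libraries in the differences was not tested beyond leaving each of them out. The 22 genes were called at higher levels than most: the highest of their 4 group means had a median of 73.9 CPM, against 12.9 CPM over all tested genes. Their median transcript length was 1575 bases, against 1740, and their median GC content 41.2%, against 41.3%.

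Just outside the threshold, where no gene is called, stood MYBL2 (-0.51 ± 0.12, adjusted p = 0.0502), a repressor of anthocyanin synthesis, DYL1 (-0.80 ± 0.19, 0.0509), a dormancy-associated protein, and J11 (-0.64 ± 0.15, 0.0571), a further DnaJ-type chaperone. Beyond them came CPK32, a calcium-dependent kinase (-0.99 ± 0.23, 0.0575). The nearest genes with differences above 0 were AT4G38840, an auxin-responsive SAUR-like gene (0.49 ± 0.12, 0.0576), and AT3G45210 (0.81 ± 0.19, 0.0582). Just inside it were KFB50 (0.0443), SZF1 (0.0460) and AT2G24550 (0.0492), all from edgeR's quasi-likelihood test.

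Gene lists for cold, stress, hormone, clock and metabolic pathways were read in the same way. They held 364 genes in 35 lists, of which 316 were tested and 10 called, all with a difference below 0, against 0.133% of all tested genes called in either direction and 0.127% below 0. The 10 fell in 6 lists: 2 of 3 RAV and TEM genes, 2 of 4 MYB subgroup 22, 2 of 4 kelch F-box, 2 of 9 tandem zinc finger, 1 of 9 ERF group IX and 1 of 11 nitrate and ammonium genes. These lists were assembled with earlier results of these libraries known, so their counts are a description. In the list of 8 WRKY factors the median difference was -0.64 with 0 called, and WRKY33, a defence regulator, had -1.21 ± 0.40 (edgeR adjusted p = 0.323). RD26, a NAC factor of the dehydration response, had -1.35 ± 0.32 (edgeR adjusted p = 0.0604), and BT5, of the BTB-TAZ scaffold family, had -1.87 ± 0.45 (0.0653). The median was highest in the flavonoid and anthocyanin list, at 0.39 over 14 genes with 0 called. In that list CHS, the entry enzyme of flavonoid synthesis, had 0.58 ± 0.16 (edgeR adjusted p = 0.170) and ELIP1, a light stress protein, 0.86 ± 0.25 (0.220).

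**Figure D5:**
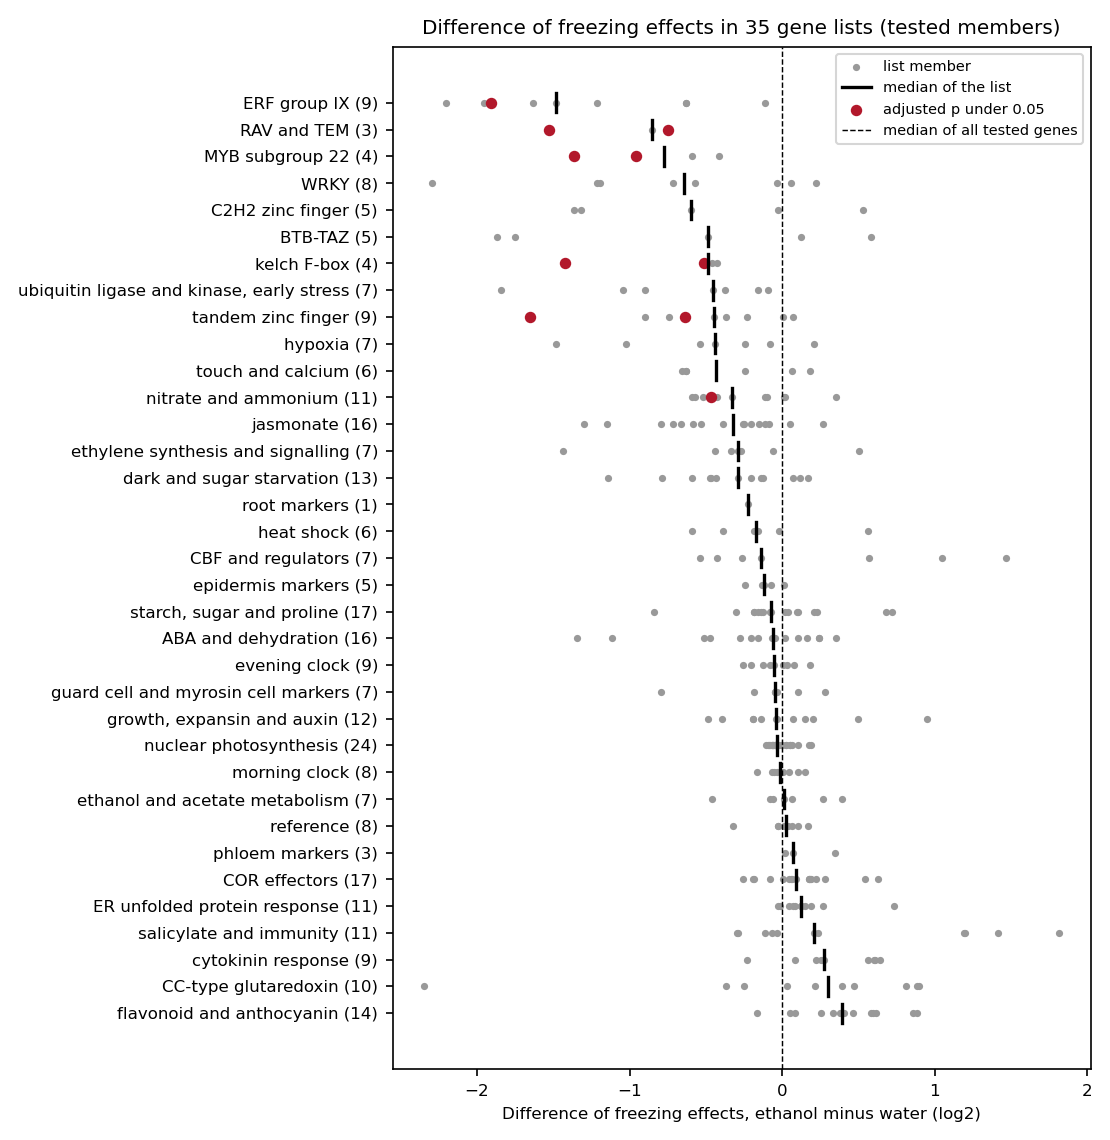
Difference of freezing effects (log2, ethanol minus water) for the 316 tested members of 35 gene lists, ordered by the list median, with the number tested in brackets. Red points are the 10 called genes, bars are list medians and the dashed line is the median of all tested genes, -0.0025.

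The CBF and COR genes, the core of the cold response, held no called difference. The median over 17 COR effectors was 0.09, and over 7 genes of the CBF list -0.14. Freezing raised 0 of the 17 COR effectors after either pretreatment (4.1% of all tested genes after ethanol, 7.0% after water). It lowered 2 after ethanol and 3 after water (5.68% and 6.96% of all). Summed over the 17, libraries of starting plants had 1129 to 1555 CPM, against 5536 to 8326 in water and 6446 to 10270 in ethanol libraries. The unfrozen groups compared here thus already lay above the starting plants, and the cause was not tested. Frozen water libraries had 4642 to 7482 CPM and frozen ethanol libraries 5166 to 13390. After freezing, ethanol plants were higher in 5 of the 17 and lower in 1 (2.41% and 2.83% of all). CBF2 had 3.42, 7.77 and 85.9 CPM in frozen ethanol plants, against 2.46, 6.04 and 10.12 CPM in ethanol plants. For frozen water plants the values were 2.66, 5.94 and 12.2 CPM, against 1.72, 4.603 and 15.4 CPM in water plants. The highest value came from frozen ethanol replicate 3, which also had the highest CBF1 (40.1 CPM) and CBF3 (75.7 CPM). The difference of CBF2 was 1.47 with a 95% interval of 0.13 to 2.81 (edgeR adjusted p = 0.549), and 0.19 without that library. CBF1 had a difference of 1.05 (interval -0.36 to 2.46) and CBF3 of 0.57 (-0.12 to 1.26). Without frozen ethanol replicate 3 these were -0.18 for CBF1, with the sign turned, and 0.30 for CBF3. Freezing after ethanol raised CBF2 by 1.58 ± 0.45, and its estimate after water was 0.11 ± 0.49 and not called. After freezing, ethanol plants were higher in CBF2 by 1.515 ± 0.45 and in CBF3 by 1.12 ± 0.24. These simple effects were not refitted without frozen ethanol replicate 3. They hold the same frozen ethanol mean as the difference, which for CBF2 was 1.47 with that library and 0.19 without it. The size of both simple effects of CBF2 therefore rests largely on 1 library. COR15A, which stabilises chloroplast membranes, had 234.9, 489.7 and 1968 CPM in frozen ethanol plants, against 196, 422 and 809 CPM in ethanol plants. It had 184, 377 and 544 CPM in frozen water plants, against 144, 401 and 588 CPM in water plants, so that all groups overlapped. Its difference was 0.63 (interval -0.18 to 1.44), and 0.14 without frozen ethanol replicate 2, which had the highest COR15A and RD29A (424 CPM). The difference of RD29A, a classic reporter of cold and drought, was 0.22 (-0.43 to 0.86), and -0.01 without frozen ethanol replicate 2. These intervals leave room for differences of more than 1 on the log2 scale in CBF1, CBF2, CBF3 and COR15A, and reads of the near-identical CBF and COR15 copies may have been split or lost in counting.

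Nuclear photosynthesis genes were lowered by freezing after both pretreatments, 22 of 24 after ethanol, against 5.68% of all tested genes, and 21 of 24 after water, against 6.96%. Both counts were taken without removing the length trend. Their median difference was -0.03 and none was called. ADH1, the alcohol dehydrogenase that acts on ethanol, had 6.50, 10.4 and 13.6 CPM in frozen ethanol plants, against 9.12, 11.1 and 15.0 CPM in ethanol plants. For frozen water plants the values were 4.80, 5.60 and 10.6 CPM, against 8.09, 9.76 and 13.3 CPM in water plants. Freezing lowered ADH1 after water by 0.59 ± 0.19, the estimate after ethanol was -0.20 ± 0.18, and the difference of 0.39 (95% interval -0.14 to 0.92) was not called. The reference genes ACT2, an actin, and UBQ10, a polyubiquitin, had differences of -0.02 (-0.21 to 0.16) and 0.04 (-0.11 to 0.18), and that of ACT2 was 0.057 with libraries thinned to the smallest total. Of 95 organelle genes tested 0 were called, while organelle genes took a mean of 3.41% of counts in frozen ethanol, 2.43% in ethanol, 2.99% in frozen water and 2.03% in water libraries.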

How the data were processed

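The authors deposited read counts per gene without normalization. Per the submitters' processing notes, TAIR10 was the build, and HISAT2, featureCounts, bcl2fastq, Trimmomatic and DESeq2 were used. Their versions, like the settings for strand and multi-mapping reads, were not given in the sources used here. Near-identical copies and overlapping genes are therefore uncertain. A second table deposited by the authors holds a scaled signal per gene and was not used for any result. Samples were grouped by their titles.

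Of 27416 genes, 2296 had no count in any library. Genes passing filterByExpr over 5 groups (16579) were tested in edgeR 4.0.16 (R 4.3.3) with TMM scaling, 1 model of 40 libraries with a mean per group, the quasi-likelihood F test and Benjamini-Hochberg adjustment over all genes tested, called at an adjusted p under 0.05. The SE is the absolute log2 value divided by the square root of F, and intervals are 95%. CPM of genes come from edgeR, scaled by the total over tested genes and the TMM factor. No library was left out. Depth of 2098593 to 9211896 counts limits precision for genes of a few CPM.

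The members and lists were chosen with earlier results of these data known. Named genes were, by rule, the 12 highest and 12 lowest differences among called nuclear genes with a mean of at least 10 CPM in any of the 4 groups, from each list the 2 with the smallest p (all tested members of lists of up to 5) and ADH1, CBF1 to CBF3, COR15A, RD29A, ERF104, RAV1, MYB73, SZF1, ACT2 and UBQ10. Genes just outside the threshold are added as a description.

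Alternatives were DESeq2 size factors in edgeR, no filter, only 4 groups, the replicate number as a block, the transcript length trend removed through offsets (a natural spline, 4 df) with and without the block, water replicate 6 and ethanol replicate 7 left out, libraries thinned to the smallest total, organelle genes left out, a test against a fold change of 1.5, DESeq2 1.42.0, and leaving out each library. Symbols, products, lengths and promoters came from RefSeq TAIR10.1, which matched 26719 of the identifiers. No coordinates of the deposited files were used. The scripts were tested on simulated data.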

Additional observations from a re-analysis of the deposited data

Results flagged for a closer look

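In 22 genes the freezing effect differed between ethanol and water plants by the test of the difference itself, 21 with a difference below 0 and 1 above.

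Of 196 pairs of a gene and a group, 7 had 1 library whose gap to the rest was over the limit of Dixon's test, as a share of the group's range, on the log2(CPM + 1) scale, a rule that chance meets in about 5% of groups. Frozen ethanol replicate 3 had 85.9 CPM of CBF2 and 40.1 CPM of CBF1. Frozen ethanol replicate 5 had 34.5 CPM of DYL1, the lowest of its group. In ethanol replicate 7 MYBL2 was at 193 CPM. RSH3 reached 29.0 CPM in water replicate 1, CPK32 11.9 CPM in water replicate 3 and KFB50 155 CPM in water replicate 8, each the highest of its group. The part of these libraries in the differences was not tested beyond leaving each of them out.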

How the results depend on the processing

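The count of 22 genes (1 with a difference above 0, 21 below) was within 1.5 times under DESeq2 size factors in edgeR (24), with organelle genes left out (25), with only the 4 groups (15, 0 above), with the length trend removed (18, 0 above) and with length and replicate block together (31, 3 above). It was 41 with no filter (8 above, 33 below), 42 without water replicate 6 and ethanol replicate 7 (8 and 34), 46 in DESeq2 (11 and 35), 10 with libraries thinned (0 and 10) and 1 against a fold change of 1.5 (0 and 1). Leaving out each library gave 11 to 61 genes, 0 to 9 above and 11 to 52 below, of which 11 to 22 were among the 22. Counts moved by over 1.5 times without water replicates 1 (14), 2 (13), 3 (14), 5 (13) and 6 (61), ethanol replicates 4 (13), 6 (13), 7 (12) and 8 (11), frozen water replicates 4 (35), 5 (14) and 6 (11) and frozen ethanol replicates 3 (35), 4 (13) and 5 (12). The cause was not tested. The labels do not say whether replicate numbers pair the samples. Over 48 pairs of same-numbered libraries correlations of deviations ran from -0.119 to 0.325, the latter in replicate 6 of frozen water and water. Of these correlations, 2 were over 0.1, and 11 were the best among the 8 libraries compared. Same-numbered libraries of replicate 6 were the best match in every pair of groups except frozen ethanol with water. What these libraries may share was not tested. The replicate block gave 36 genes (6 above, 30 below), including all 22.

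All 32 values that changed sign belong to genes with no call. Outside the fits that left out 1 library there were 9: PR5 (-0.16), PDIL1-2 (-0.12) and ACT2 (0.0092) without water replicate 6 and ethanol replicate 7, AT2G28390 (0.044), KFB01 (0.19), SUC2 (-0.055) and ACT2 (0.057) with libraries thinned, and LTP1 with the length trend removed (-0.018) and with length and replicate block (-0.022). With 1 library left out, 23 values in 9 genes changed sign, over ranges of -0.122 to 1.61 in PR5, -0.181 to 1.24 in CBF1, -0.0958 to 0.366 in PDIL1-2, -0.0119 to 0.410 in RD29A, -0.416 to 0.0127 in PYK10, -0.0379 to 0.245 in BT1, -0.0563 to 0.0173 in ACT2, -0.0198 to 0.0936 in PP2-A1 and -0.0255 to 0.0692 in LTP1. Of 4594 values of 107 single genes under alternatives, 4167 kept sign and side of the threshold, 249 lost the call, 146 gained one and 32 changed sign. Among the 22 genes, 8 were called in every alternative except the fold threshold and in all 32 fits that left out a library. The shallowest library, 2098593 counts, sets the floor of 1.43 CPM. At that depth in every library 9 of the 22 were called.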
